A study of Homo sapiens with 8 samples.

Results

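The RASSF family (Ras association domain family) was followed through 8 RNA-seq libraries from the established kidney cancer cell line A-498. Its 10 members RASSF1 to RASSF10 were taken by Entrez identifier and symbol from a table of 28395 genes. All 10 were in the table, and 9 passed the filter on low values that left 14040 genes for testing. RASSF10 did not pass. The family was chosen by the normalized counts of RASSF6, which had been seen to be higher in both lines labelled ANXA4 knockout (KO), so those values are given here as a description without a test. The question for the other members was whether they changed too.

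The libraries came from 4 lines, each sequenced as 2 replicates. Control 1 and control 2 were wild type and carried the non-targeting guides sgRNA-1 and sgRNA-2, while the KO-labelled lines carried ANXA4 sgRNA-1 and ANXA4 sgRNA-2. All lines had been seeded at equal cell numbers and grown for 24 hours below confluence. Each guide was represented by 1 line, so a guide and the line that carries it cannot be told apart, and the labels do not say whether replicates were separate cultures. P-values therefore measure only the spread between these libraries, which may be technical.

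RASSF proteins are adaptors without enzymatic activity that carry a Ras association domain, through which several of them bind active Ras or Rap GTPases. The members RASSF1 to RASSF6 also carry a SARAH domain near the carboxyl end, a coiled-coil segment that pairs with the same domain of the Hippo pathway kinases STK3 and STK4 and of their partner SAV1. RASSF7 to RASSF10 have the Ras association domain at the amino end and lack a SARAH domain. The best known member, RASSF1, is a tumour suppressor whose long isoform RASSF1A binds microtubules and is often silenced by promoter methylation in kidney cancer. RASSF6 has been described as a promoter of apoptosis that binds MOAP1 and MDM2.

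Recovered depth was 15784890 to 22631588 reads per library. ANXA4 lay between 2821 and 6773 normalized counts in the control libraries, at 236 and 234 in the line labelled KO guide 1, and at 3433 and 4142 in the line labelled KO guide 2. The transcript was thus low in only 1 of the 2 KO-labelled lines, and every direction for KO refers to the labels. Of 12 markers of renal epithelium and kidney cancer, 11 passed the filter, from VIM at 37386 to 83227 normalized counts down to CA9 at 2.07 to 24.8. PAX8 was at 2987 to 4476. EPCAM did not pass, at 3.13 to 9.46. Of 9 markers of other cell types, the leukocyte and endothelial genes CD3E and CDH5 were at 0 in all libraries and PTPRC reached at most 1.21. CD68, COL1A1 and DES passed the filter, at 1784 to 4409, 177 to 1408 and 19.3 to 36.3, so CD68 was at a level like that of PAX8. The summed level of these 9 genes was 2361 to 5321 in control and 3340 to 4954 in KO-labelled libraries. That of the 12 renal and kidney cancer markers was 90116.5 to 119432 in control and 82012.3 to 128237 in KO-labelled libraries.

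The start regions of the 2 members whose KO-labelled libraries all lay above control, RASSF6 and RASSF3, are printed because they differ in base composition. The sequences are from RefSeq on GRCh38.p14 and span 250 bases before to 50 bases after an annotated start, written 5′ to 3′ on the strand of the gene with every CpG dinucleotide in capitals. RASSF6, on chromosome 4, has 2 entries with overlapping windows. The outer one is chr4:73620582-73620881 (minus strand), the inner one is chr4:73620387-73620686 (minus strand), and the RASSF3 entry is chr12:64610245-64610544 (plus strand).
RASSF6 outer start: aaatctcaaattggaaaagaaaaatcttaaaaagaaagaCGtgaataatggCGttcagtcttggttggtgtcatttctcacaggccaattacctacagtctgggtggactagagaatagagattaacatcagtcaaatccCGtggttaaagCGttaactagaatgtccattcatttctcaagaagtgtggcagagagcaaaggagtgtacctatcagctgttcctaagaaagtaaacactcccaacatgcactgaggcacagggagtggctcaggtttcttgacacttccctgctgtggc
RASSF6 inner start: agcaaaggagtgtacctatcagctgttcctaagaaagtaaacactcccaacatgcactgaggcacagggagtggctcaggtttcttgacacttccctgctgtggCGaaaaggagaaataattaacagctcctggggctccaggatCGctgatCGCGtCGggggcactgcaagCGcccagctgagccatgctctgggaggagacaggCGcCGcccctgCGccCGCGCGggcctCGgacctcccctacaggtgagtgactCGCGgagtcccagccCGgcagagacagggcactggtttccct
RASSF3 start: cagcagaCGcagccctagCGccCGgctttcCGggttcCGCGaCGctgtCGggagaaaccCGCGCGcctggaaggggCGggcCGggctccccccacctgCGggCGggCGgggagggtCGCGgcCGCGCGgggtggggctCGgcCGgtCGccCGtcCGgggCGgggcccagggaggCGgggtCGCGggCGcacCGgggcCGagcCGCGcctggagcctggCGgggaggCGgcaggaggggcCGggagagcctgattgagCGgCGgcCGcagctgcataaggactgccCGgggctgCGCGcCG

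The RASSF6 outer window held 4 CpG and the inner one 16, against 45 in the RASSF3 window. Over all 35116 windows of this length in the RefSeq table the median was 14, and 97.1% held no more CpG than that of RASSF3. A window was found for 7 of the 10 members, and RASSF7, RASSF8 and RASSF10 had none. The other members ranged from 6 CpG in RASSF9 and 7 in RASSF2 to 36 in RASSF4, with 33 in RASSF1 and 29 and 15 in the 2 entries of RASSF5. The windows of RASSF1, RASSF2 and RASSF3 lie 3.39, 8.46 and 103.5 kb inside the annotated gene, so the RASSF3 sequence above, like these, is not that of the outermost start. Neither RASSF6 window nor that of RASSF3 held the AP-1 motif TGANTCA or the TEAD motif GGAATG, searched on both strands, which 7.71% and 14% of all windows held, or the E-box CACGTG, which 7.26% held. The NF-kB motif, written as 3 G, any 5 bases and 2 C, was in the RASSF6 inner and the RASSF3 window and in 58.7% of all windows. These searches describe letters in a window and say nothing of a factor's binding.

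Per kilobase of annotated exon, the members fell into a well-expressed and a poorly expressed set, a split that did not hold by coding length. The level over all 8 libraries was 169 ± 50.1 normalized counts per kb for RASSF3, 153 ± 32.4 for RASSF2, 104 ± 21.1 for RASSF1, 80.1 ± 32.8 for RASSF7 and 72.4 ± 22.7 for RASSF8 (SD, n = 8). RASSF4, RASSF5 and RASSF9 were at 12.8 ± 4.75, 7.50 ± 3.02 and 7.09 ± 1.87 per kb. Neighbours in the order overlapped in their library ranges, except for RASSF8 and RASSF6. RASSF6 stood between the sets, and its level differed by arm. In control it was at 9.33 ± 4.10 per kb (SD, n = 4), within the range of the poorly expressed set. With the KO label it was at 44.9 ± 6.85 per kb (SD, n = 4), above that set. RASSF10 was at or below 1 read in every library, under the floor of 3 reads per library, and no fold is given. Exon lengths came from GENCODE release 29 and count every annotated exon once, so genes with many annotated isoforms are understated.

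**Figure D1:**
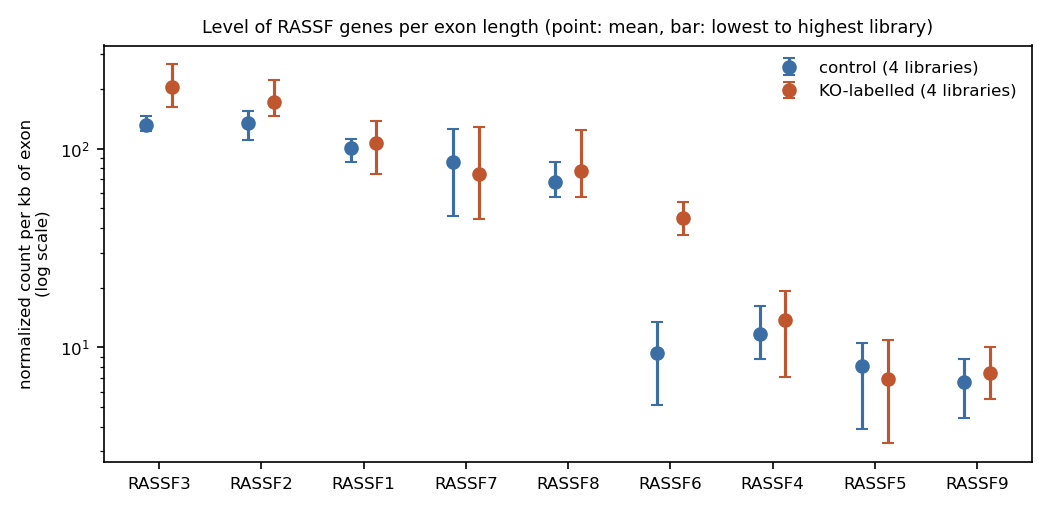
Normalized count per kb of annotated exon (log axis) for the 9 RASSF genes that passed the filter, as mean (point) and lowest to highest of 4 libraries (bar) in control and KO-labelled libraries. RASSF6, which was chosen for this difference, has its 2 bars farthest apart, at means of 9.33 and 44.9 per kb.

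RASSF6 (Entrez gene 166824, GRCh38.p14, chromosome 4, 73571550 to 73620631) had normalized counts of 34.0 and 43.7 in control 1 and 89.5 and 80.4 in control 2. Under the KO label it had 355 and 301 with guide 1 and 289 and 245 with guide 2. These rest on 203 to 454 reads per KO-labelled and 37 to 104 per control library. All 4 KO-labelled libraries were above all 4 control libraries, and the replicates of each line lay close together. The log2 difference was 2.49 for KO guide 1 and 2.2 for KO guide 2 against the mean of both control lines, values that share the control libraries and belong to the contrast by which the gene was chosen. The annotation lists no gene that overlaps RASSF6.

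The control lines also differed in RASSF6, with no ANXA4 guide in either. Control 2 was higher than control 1 by 1.12 on the log2 scale (SE 0.21, 95% interval 0.63 to 1.60, limma adjusted p 0.0400), and both of its libraries were above both of control 1. This was the only 1 of the 9 members called in that comparison, in which 2.13% of all tested genes were called. The call did not hold without any 1 of the 4 control libraries (adjusted p 0.137 to 0.223) or without either library of KO guide 1 (0.0813 and 0.0796), which enter through the shared spread. It was also lost with no filter on low values (0.0581) and with equal library totals (0.0552). The 2 KO-labelled lines differed by -0.30 (guide 2 minus guide 1, SE 0.21, 95% interval -0.78 to 0.19, limma adjusted p 0.431).

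**Figure D2:**
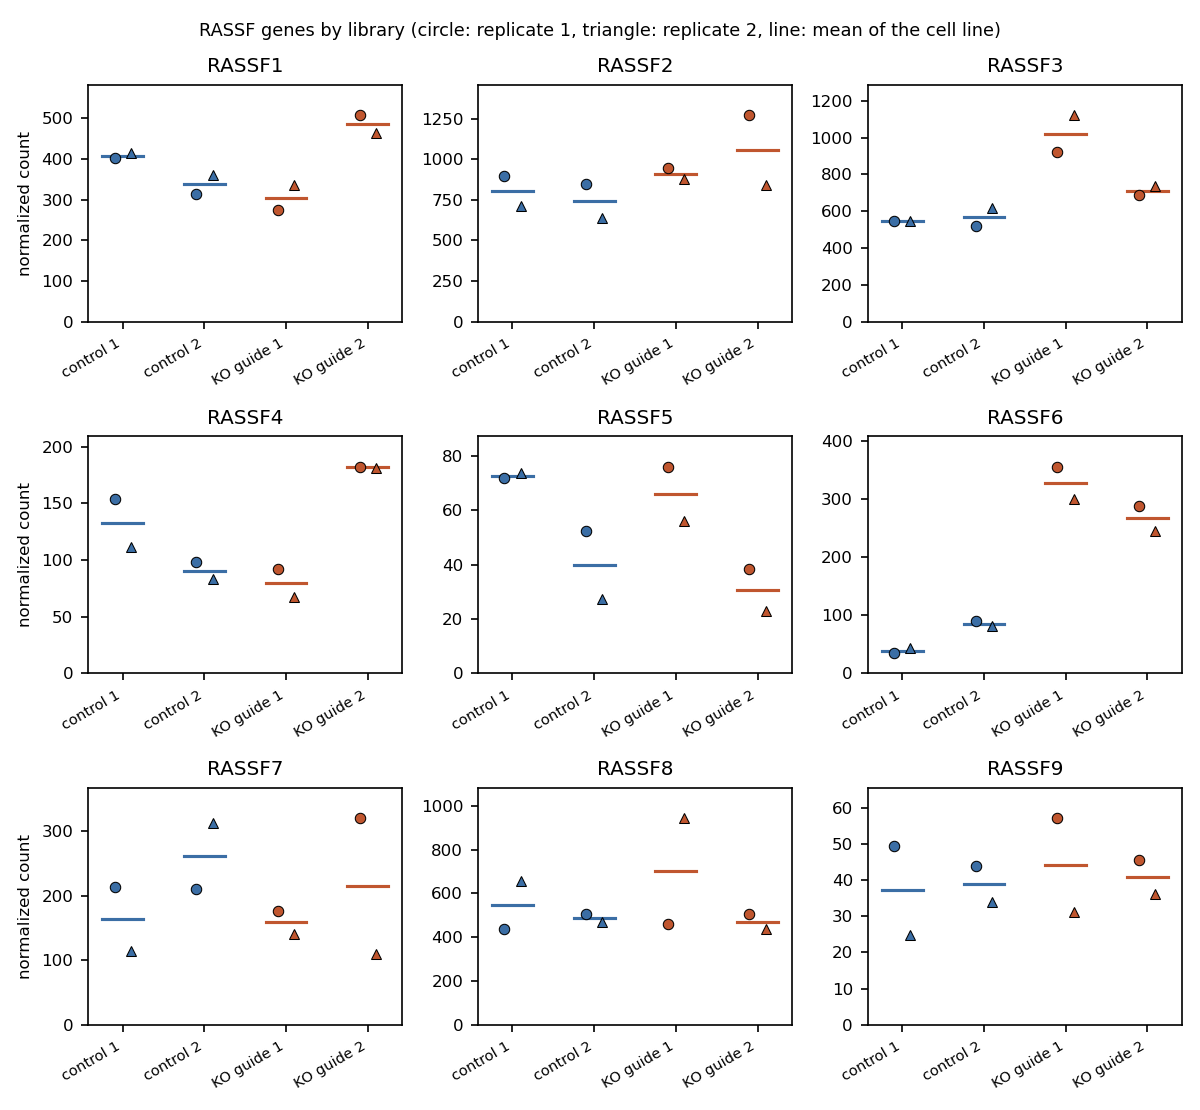
Normalized counts (linear axes from 0) of the 9 RASSF genes in each of the 8 libraries, with a line at the mean of each cell line. RASSF6 and RASSF3 are the 2 genes in which every KO-labelled library (red) lies above every control library (blue). RASSF6 was chosen for its rise with the KO label.

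RASSF3, a short SARAH-containing member described as a regulator of p53 through MDM2, was the only other member whose arms did not overlap. Its normalized counts were 544 and 549 in control 1 and 519 and 619 in control 2. KO guide 1 gave 924 and 1120, and KO guide 2 gave 687 and 735. Of all tested genes, 5.11% had all KO-labelled libraries above all control libraries. The KO-labelled mean was 866 ± 198 against 558 ± 42.7 in control (SD, n = 4 each), a log2 difference of 0.61 (SE 0.19, 95% interval 0.20 to 1.02, limma adjusted p 0.237), which was not called. In a limma fit with its own mean per line, blind to line-to-line variation, its adjusted p was 0.0108. In DESeq2, which took the 4 libraries of an arm as independent, it was 0.0137. Those settings called 10.5% and 6.05% of all tested genes. In edgeR (quasi-likelihood), which also took the libraries as independent, it was 0.0903, a setting that called 1.32%. In limma on the means of the lines, with the line as the unit, the adjusted p of RASSF3 was 0.630. That setting called 0 of all tested genes.

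Taken by line, RASSF3 rose in the line labelled KO guide 1, by 0.87 on the log2 scale against both control lines (SE 0.13, 95% interval 0.56 to 1.17, limma adjusted p 0.00827). It was called there with every alternative run except that without replicate 2 of KO guide 1, where the difference was 0.73 and the adjusted p 0.115. RASSF3 was the 1 member called among the 8 tested in this comparison, beside 7.01% of all tested genes, and this count does not set the family apart. For KO guide 2 the difference was 0.35 (SE 0.13, 95% interval 0.05 to 0.66, adjusted p 0.132). Adding a block for the replicate number called it there too (adjusted p 0.0256). The lines differed by -0.52 (guide 2 minus guide 1, SE 0.15, limma adjusted p 0.0813, and 0.00902 with the block). The control lines were at 547 ± 3.42 and 569 ± 70.6 (SD, n = 2 each), a difference of 0.05 (SE 0.15, limma adjusted p 0.945).

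Between KO and control, 0 of the 8 members other than RASSF6 were called by limma, where 0.235% of all tested genes were called. Without adjustment, p was under 0.05 for 1 of them, RASSF3, and for 11.5% of all tested genes. edgeR called 0 of the members and DESeq2 called 1. The median log2 difference of these 8 members was 0.13, beside 0.00 (0.000732) over all tested genes. For RASSF1 the difference was 0.05 (95% interval -0.44 to 0.53). The intervals were widest for RASSF5 (-1.28 to 0.78) and RASSF7 (-1.24 to 0.80), so a 2-fold lower level of these 2 genes was within the error.

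RASSF2, a SARAH member that binds STK3 and STK4, was at 895 and 713 in control 1, 848 and 639 in control 2, 943 and 878 in KO guide 1 and 1269 and 844 in KO guide 2. The arms overlapped, and the log2 difference between KO and control was 0.34 (SE 0.21, 95% interval -0.13 to 0.81, limma adjusted p 0.608). For KO guide 2 alone it was 0.43 (SE 0.19, limma adjusted p 0.196, and 0.013 with the replicate block).

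**Figure D3:**
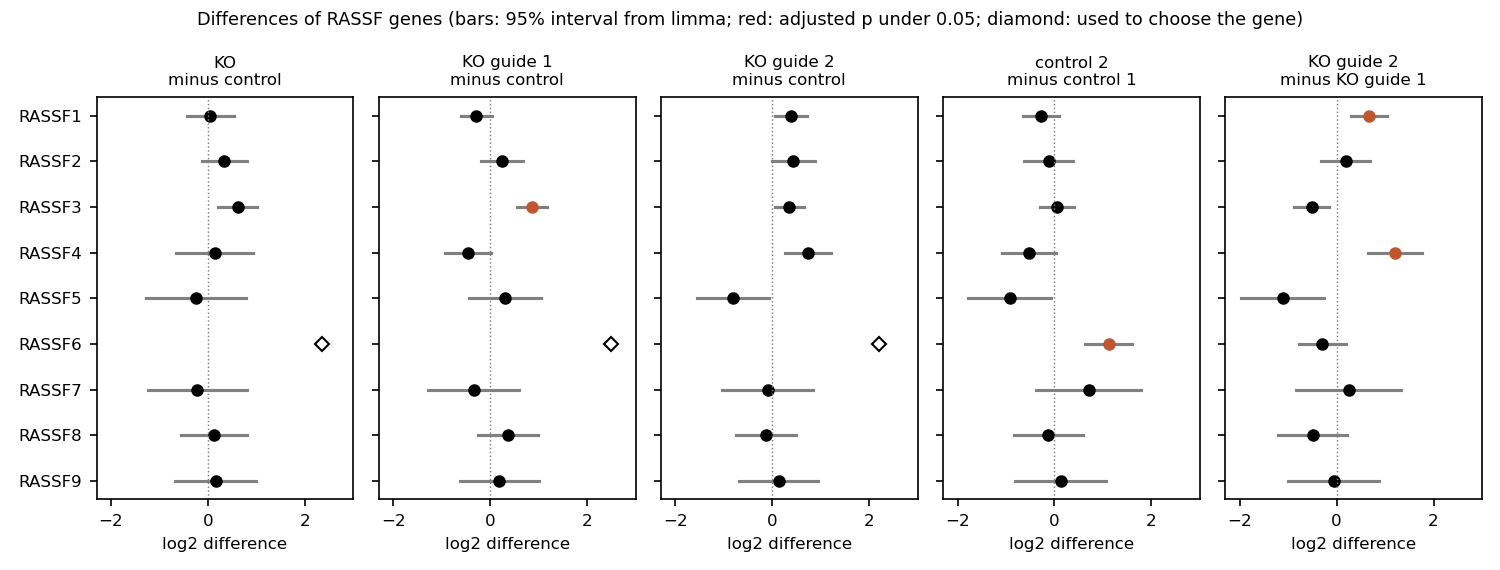
Log2 differences of the 9 RASSF genes in 5 comparisons, with 95% intervals from limma. Red points have an adjusted p under 0.05, which are RASSF3 in KO guide 1, RASSF6 between the control lines, and RASSF1 and RASSF4 between the KO-labelled lines, and open diamonds mark the contrasts that chose RASSF6.

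RASSF1 and RASSF4 differed between the 2 KO-labelled lines, with both genes higher in guide 2 than in guide 1. RASSF1 (chromosome 3) was at 403 and 414 in control 1, 315 and 360 in control 2, 275 and 335 in KO guide 1 and 507 and 464 in KO guide 2. Both KO guide 2 libraries were above all 6 others. KO guide 2 exceeded KO guide 1 by 0.67 on the log2 scale (SE 0.16, 95% interval 0.30 to 1.04, limma adjusted p 0.0444). This call was lost when any 1 of the 8 libraries was left out, with adjusted p-values of 0.0515 to 0.235, and also with no filter (0.0586) and with equal library totals (0.0645). Against both control lines RASSF1 differed by -0.29 in KO guide 1 (limma adjusted p 0.255) and by 0.39 in KO guide 2 (0.12, and 0.0351 with the replicate block). The counts are per gene, so the isoform RASSF1A and the shorter isoforms from an inner start were not separated.

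RASSF4 is a SARAH member described as a K-Ras binding protein. Its normalized counts were 154 and 111 in control 1, 98.1 and 82.7 in control 2, 91.6 and 67.4 in KO guide 1, and 182 and 181 in KO guide 2. KO guide 2 was higher than KO guide 1 by 1.20 (SE 0.24, 95% interval 0.64 to 1.75, limma adjusted p 0.0268). The call was lost when any 1 of the 4 KO-labelled libraries was left out (adjusted p 0.0569 to 0.194). Against control the differences were -0.46 (limma adjusted p 0.227) in KO guide 1 and 0.74 (0.0571) in KO guide 2, the latter called with the replicate block (0.00631) and with DESeq2 (0.048). DEPP1, a gene that lies within the RASSF4 locus, was at 431 and 581 in control 1, 36.1 and 41.9 in control 2, 43.8 and 65.4 in KO guide 1 and 107 and 121 in KO guide 2. It differed between the KO-labelled lines by 1.07 in the same direction (SE 0.26, limma adjusted p 0.0453). Strand use in counting was not stated, and the part of DEPP1 reads in the RASSF4 count was not tested.

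RASSF5, known as NORE1 and RAPL, links Rap1 to integrin adhesion in lymphocytes. It was low, at 71.7 and 73.8 in control 1, 52.5 and 27.2 in control 2, 75.9 and 56.0 in KO guide 1 and 38.3 and 22.9 in KO guide 2, from 19 to 97 reads. Within each arm the second line was lower than the first, by -0.93 between the controls (SE 0.38, limma adjusted p 0.276) and by -1.11 between the KO-labelled lines (SE 0.38, adjusted p 0.116, and 0.0133 with the replicate block). Neither was called without the block, and the difference between the controls was not called with it either (limma adjusted p 0.0503). The much more abundant gene EIF2D, at 891 to 1269, overlaps RASSF5 in the annotation, and its part in the RASSF5 count was not tested.

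Between the KO-labelled lines, 2 of 9 members were called, where 6.94% of all tested genes were, and with the replicate block 4 of 9 were, beside 24.5%. In KO guide 2 against control, 0 of the 8 members were called by limma or edgeR and 1, RASSF4, by DESeq2. These tools called 11.2%, 11% and 13.1% of all tested genes. At an unadjusted p under 0.05 stood 4 of the members, RASSF1, RASSF3, RASSF4 and RASSF5, and 26.7% of all tested genes. With the replicate block 5 of the 8 were called there, RASSF1, RASSF2, RASSF3 and RASSF4 as higher and RASSF5 as lower (adjusted p 0.0276), beside 27.4% of all tested genes.

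Of the members without a SARAH domain, RASSF7, RASSF8 and RASSF9 were tested, and limma called 0 of the 3 in each of the 5 comparisons, with 0 at an unadjusted p under 0.05. edgeR and DESeq2 also called 0 of them. In these comparisons limma called 0.235% to 11.2% of all tested genes. At an unadjusted p under 0.05 stood 11.5% for KO against control and 26.7% for KO guide 2 against control. A count of 0 of 3 therefore says nothing particular of these genes. RASSF7, which localises to centrosomes, was at 213 and 114 in control 1, 210 and 313 in control 2, 176 and 141 in KO guide 1 and 320 and 110 in KO guide 2. Its replicates differed 2.91-fold in KO guide 2 and in either direction among the lines, and its KO minus control difference was -0.22 (SE 0.46, limma adjusted p 0.924). RASSF8, a protein of epithelial cell junctions, was at 436 and 654 in control 1, 506 and 470 in control 2, 462 and 942 in KO guide 1 and 505 and 436 in KO guide 2. Replicate 2 of KO guide 1 stood above the other 7 libraries. The KO minus control difference of RASSF8 was 0.12 (SE 0.31, limma adjusted p 0.937) and -0.13 without that library.

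RASSF9, a protein of recycling endosomes, lay between 25.0 and 57.1 normalized counts, and its KO minus control difference was 0.16 (SE 0.38, 95% interval -0.67 to 1.00, limma adjusted p 0.933). Replicate 2 was below replicate 1 in all 4 lines, with ratios of 0.503, 0.775, 0.545 and 0.796. RASSF2, with ratios of 0.798, 0.753, 0.93 and 0.665, and RASSF4, with ratios of 0.725, 0.843, 0.736 and 0.995, were also lower in every line. Of all tested genes, 19.3% were lower in replicate 2 in all 4 lines, so this pattern was common in these libraries. RASSF6 and RASSF3 had replicate ratios of 0.846 to 1.28 and 1.01 to 1.21.

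The tested genes nearest to RASSF6 were AFP, ANKRD17 and COX18 on one side. On the other were the chemokine genes CXCL8, CXCL1 and CXCL3, with CXCL8 119.9 kb away. Between KO and control 0 of the 6 were called by limma and 0 had an unadjusted p under 0.05, with limma adjusted p-values of 0.594 to 0.954 and differences of -0.29 for CXCL8, 0.74 for CXCL1 and 1.01 for CXCL3. CXCL8 was at 2107 ± 1284 in KO-labelled and 2410 ± 1074 in control libraries (SD, n = 4 each), a spread wider than the difference. AFP, ANKRD17 and COX18 differed by -0.16, 0.05 and 0.05. Near RASSF3, TBK1 differed by -0.06, with an adjusted p of 0.938.

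**Figure D4:**
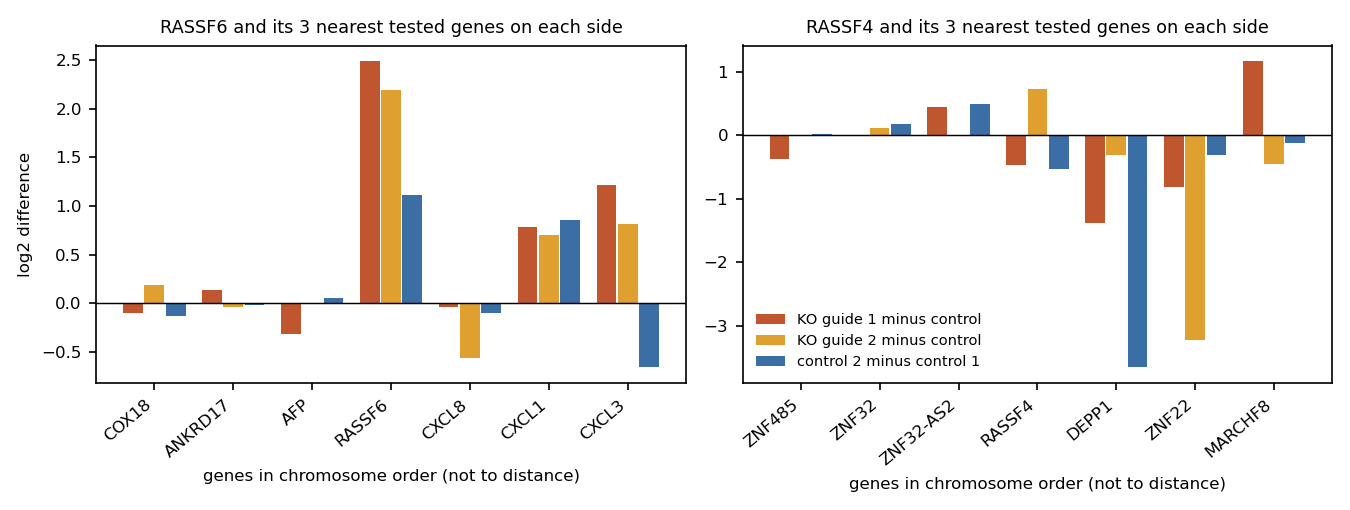
Log2 differences of RASSF6 (left) and RASSF4 (right) and of the 3 nearest tested genes on each side in chromosome order, for KO guide 1 and KO guide 2 against control and for control 2 against control 1. Bars start at 0. RASSF6 stands at 2.49 and 2.2 in the KO contrasts by which it was chosen, so its height over its 6 neighbours there is no test. DEPP1 beside RASSF4 stands at -3.65 between the control lines.

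Beside RASSF4, DEPP1 and ZNF22 differed between lines, while ZNF485, ZNF32, ZNF32-AS2 and MARCHF8 were called in no comparison. Between the KO-labelled lines 6.94% of all tested genes were called. ZNF22, 5.03 kb beyond RASSF4, was at 15.9 in KO guide 2 and 91.8 in KO guide 1 (mean, n = 2 each). The difference was -2.42 (SE 0.36, limma adjusted p 0.00936), opposite in sign to that of RASSF4. Beside RASSF1 in the cluster of 3p21 genes, NPRL2 differed by 0.69 between the KO-labelled lines (SE 0.20, limma adjusted p 0.0757). TUSC2 differed by 0.29, CYB561D2 by 0.32, HYAL2 by -0.25, HYAL1 by -0.35 and TMEM115 by -0.05, with adjusted p-values above that of NPRL2. Against control, HYAL2 was called lower in KO guide 1 (-0.77, limma adjusted p 0.00994) and KO guide 2 (-1.01, 0.00243). HYAL2 was also lower in control 2 than in control 1 (-0.78, limma adjusted p 0.0346). TMEM115 was called lower in KO guide 2 than in control (-0.51, adjusted p 0.0318).

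The genes whose log2 values followed RASSF6 most closely over the 8 libraries, among 11236 genes with a mean of at least 50, were MMRN2 (Pearson's r 0.981), LRATD2 (0.98), NBEA (0.98), MSR1 (0.978) and PNMA2 (0.978). MMRN2 encodes an extracellular matrix protein of endothelium and MSR1 a macrophage scavenger receptor. MMRN2 was at 85.3 to 127 normalized counts in control and 190 to 255 in KO-labelled libraries, and PNMA2 at 177 to 465 and 798 to 1142. RASSF6 was chosen for its rise with the KO label, so genes picked for following it differ between the arms by that choice. By Spearman's rho over the same genes, 0 of these 5 remained among the top 5. Closest to RASSF3 were RPS6KA3 (r 0.975), TPD52 (0.971) and KCTD3 (0.97), closest to RASSF4 were PLCB4 (0.982), PIK3R3 (0.978) and PAAF1 (0.956), and closest to RASSF1 were LRRN4 (0.957), STEAP1B-AS1 (0.955) and MTFP1 (0.948). Libraries of a line share their source, so these values describe 4 lines more than 8 independent samples.

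The proteins that RASSF members act with were examined in 4 lists, which held 68 tested genes. In KO against control, limma called 0 of the 68, edgeR called 1 and DESeq2 called 3, and an unadjusted p under 0.05 was found for 4. Over all tested genes these shares were 0.235%, 1.32%, 6.05% and 11.5%, so the counts do not set the lists apart. Of the 26 genes of the Hippo kinase pathway, the kinases STK3, STK4, LATS1 and LATS2 among them, 0 had an unadjusted p under 0.05, and their median log2 difference was -0.03. The largest differences there were -1.04 for AMOTL1 (SE 0.86), -0.62 for AMOTL2 (SE 0.32) and 0.40 for WWC1 (SE 0.25), with limma adjusted p-values of 0.723, 0.503 and 0.604. In KO guide 1 alone, 1 of the 26 Hippo genes was called higher and 1 lower, beside 7.01% of all tested genes. These were PTPN14, a phosphatase that restrains YAP (0.64, limma adjusted p 0.0133), and FRMD6 (-0.86, adjusted p 0.0354). In KO guide 2 both were outside the calls, and the KO-labelled lines differed in both (PTPN14 -0.75, adjusted p 0.0148, and FRMD6 1.03, adjusted p 0.0318). They also differed in MOB1A, a coactivator of the LATS kinases (-0.57 for guide 2 minus guide 1, limma adjusted p 0.0463). Between these lines 1 of the 26 was called higher and 2 lower, beside 6.94% of all tested genes.

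Among 11 RAS family GTPases the median was 0.13, and RRAS, MRAS and HRAS differed most, by 0.33, -0.29 and -0.26 (limma adjusted p 0.556, 0.884 and 0.949). RRAS rose by 0.57 in KO guide 2 (adjusted p 0.0269). RAP2B was lower in control 2 than in control 1 (-0.79, limma adjusted p 0.0207) and lower in KO guide 2 than in KO guide 1 (-0.65, adjusted p 0.0213). Of 19 tested genes of STRIPAK, the phosphatase complex that opposes STK3 and STK4, the median was 0.07. PPP2CB, a catalytic subunit of that phosphatase, was at 2443 in KO-labelled and 1615 in control libraries, a difference of 0.63 (SE 0.19, limma adjusted p 0.235), and was called against control in each KO-labelled line (adjusted p 0.0182 and 0.0121). The control lines differed in PPP2CB by as much, with 1970 in control 2 and 1260 in control 1, a log2 difference of 0.64 (SE 0.14, limma adjusted p 0.052). CTTNBP2NL differed by 0.42 and PDCD10, an adaptor of the complex, by -0.40 (adjusted p 0.583 and 0.469). By line, PDCD10 was lower in KO guide 2 than in control (-0.69, limma adjusted p 0.00997) and than in KO guide 1 (-0.57, adjusted p 0.048). The scaffold gene STRN was also lower in KO guide 2 than in KO guide 1 (-0.80, adjusted p 0.0416). Of 12 tested binding partners, AURKA, a mitotic kinase that phosphorylates RASSF1A, differed by -0.69 (SE 0.15, limma adjusted p 0.108) and was lower in each KO-labelled line against control (adjusted p 0.00481 and 0.00763). AURKA was at 0.41 more in control 2 than in control 1 on the log2 scale (SE 0.12, limma adjusted p 0.131). CDC20, an activator of the anaphase-promoting complex, was lower in KO guide 2 than in control (-0.43, limma adjusted p 0.0408). CNKSR1 differed by 0.54 and AURKB by -0.53 (adjusted p 0.731 and 0.608). The partners MOAP1, DAXX and MOB4 did not pass the filter. The comparisons of the single lines share the control libraries, and their limma fit takes no account of variation between lines.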

How the data were processed

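The deposited table held a normalized signal, 1 column per library with replicates not pooled. Per the submitters' processing notes, fastp 0.23.2, HISAT2 2.2.1, featureCounts 2.0.1 and DESeq2 2.11.40.8 were used with build hg38 (GRCh38). The annotation and strand setting are not given in the sources used here. Division by the smallest value of a column gave whole numbers for 100% of values above 0 (relative tolerance 1e-06), so reads were recovered from the deposited signal. Symbols from RefSeq GRCh38.p14 were found for 27745 of 28395 identifiers.

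A gene was tested if 2 or more libraries reached 10. The test was limma 3.58.1 (R 4.3.3) on log2(value + 1), so differences are on that scale and understate changes of low genes. KO was compared with control with the correlation within a line (0.33) from duplicateCorrelation, and single lines were compared in 1 model of line means. Benjamini-Hochberg adjustment ran over 14040 genes, and an adjusted p under 0.05 was a call. edgeR 4.0.16 and DESeq2 1.42.0 were run on recovered reads as alternatives, beside other pseudocounts, filters and scalings, omission of each library and a replicate block. Between KO and control, edgeR and DESeq2 took no account of the line, so libraries of a line counted as independent. Scripts were tested on simulated data. Replicate numbers came from the titles. Differences between replicate 2 and replicate 1 correlated across genes at 0.285 to 0.501 in all 6 pairs of lines, so blocked values are printed where they change a call. RASSF6 was left out of counts in the 3 contrasts that chose it. All members were named, partner genes where called or, in a list with none, the 3 with the largest difference, and neighbours and most similar genes for members called in any comparison. Members and lists were chosen with earlier results of these data known.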

Additional observations from a re-analysis of the deposited data

Results flagged for a closer look

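RASSF8 in replicate 2 of the line labelled KO guide 1 (942 normalized counts) stood apart from the other 3 KO-labelled libraries (436 to 505), with a gap of 0.864 of the group's range. This was 1 of 18 groups of 4 libraries examined, and chance marks about 1 in 20 groups. RASSF1 and RASSF4 differed between the 2 KO-labelled lines, by 0.67 (limma adjusted p 0.0444) and 1.20 (adjusted p 0.0268) on the log2 scale for guide 2 minus guide 1, which tests whether the 2 lines differ from control by the same amount.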

How the results depend on the processing

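With only 2 libraries per line, single libraries decided several calls. Leaving out 1 library gave 0 to 1 called member in each of 3 comparisons, those of KO guide 1 with control, of control 2 with control 1 and of KO guide 2 with KO guide 1. Between KO and control, a separate mean for each line and DESeq2 each called 1 member, and they called 4 and 3 partner genes, where edgeR called 1. In KO guide 2 the replicate block gave 5 members and DESeq2 gave 1. Between the KO-labelled lines the replicate block gave 4, and no filter on low values and equal library totals gave 1 each. These 2 settings gave 0 between the control lines. The replicate block changed no other count of members. The cause of these changes was not tested. RASSF7 in KO guide 2 turned to 0.058 with both edgeR and DESeq2.

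Signs of small differences turned when 1 library was left out. Between KO and control the ranges were -0.030 to 0.18 for RASSF1, -0.52 to 0.0074 for RASSF5, -0.56 to 0.061 for RASSF7, -0.13 to 0.26 for RASSF8 and -0.041 to 0.34 for RASSF9. For KO guide 1 they were -0.14 to 0.88 for RASSF8 and -0.24 to 0.62 for RASSF9. For KO guide 2 they were -0.86 to 0.67 for RASSF7, -0.27 to 0.025 for RASSF8 and -0.11 to 0.38 for RASSF9. Between the control lines they were -0.32 to 0.086 for RASSF2, -0.075 to 0.18 for RASSF3, -0.42 to 0.16 for RASSF8 and -0.35 to 0.61 for RASSF9. Between the KO-labelled lines they were -0.11 to 0.48 for RASSF2, -0.52 to 1.01 for RASSF7, -1.0 to 0.022 for RASSF8 and -0.48 to 0.37 for RASSF9. RASSF6 in KO against control stayed between 2.16 and 2.48 in these fits, a description only, as the gene was chosen for this difference.

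Counts over all genes moved more than 1.5-fold. Between KO and control they were 33 in the reported fit, 1474 with a separate mean for each line, 850 with DESeq2, 186 with edgeR, 71 with no filter and 0 with line means. With the replicate block KO guide 1 had 3432 and KO guide 2 had 3851, where the reported fits gave 984 and 1573. The pair of control lines had 1752 in place of 299, and that of KO-labelled lines 3442 in place of 975. DESeq2 and no filter gave 655 and 183 between the control lines. Leaving out 1 library gave 7 to 39 genes for KO against control, 148 to 1324 for KO guide 1, 814 to 1360 for KO guide 2, 43 to 410 for the controls and 87 to 998 for the KO-labelled pair. A line left with 1 library was assumed to vary like the others. By coding length, an alternative chosen after seeing the data, RASSF2 (898 per kb) exceeded RASSF3 (794). RASSF7, RASSF6 and RASSF4 then lay close together, at 178, 162 and 126 per kb. The split into a well-expressed and a poorly expressed set by exon length was therefore not kept. Coding lengths came from the annotation, and lengths from proteins were not run.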
